A study of Arabidopsis thaliana with 6 samples.

Results

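The genes described here copy DNA, repair it or package it into nucleosomes, and were taken from the authors' table of differences between dme and wild-type Arabidopsis thaliana seedlings. Members were the rows whose description names minichromosome maintenance, replication, DNA repair, DNA polymerase, DNA ligase, ribonucleotide reductase, recombination or histone, plus the 4 genes BRCA1, BARD1, TSO2 and HTR12, and without the mutated gene DME. They make up 34 of 5322 rows, or 33 of 5311 measurements once rows with identical values are counted once. The study sampled whole seedlings of the Ler accession at 7 days after germination, with 3 wild-type (WT) libraries and 3 of the mutant, whose genotype is labelled dme/- with no allele or zygosity. For each gene the table gives the normalized count averaged over the 6 libraries, a fold change (read here as dme over WT) and an adjusted p. Only genes with a change of at least 2-fold and an adjusted p under 0.05 are in it. Values per library are not used here, so the level in each genotype is given as an implied mean, computed from the table's mean and fold, and the error of a log2 fold change as an upper bound of its standard error (SE), computed from its adjusted p. All log2 fold changes, mean counts and adjusted p-values are those of the authors' deposited table. The depth of the libraries is unknown. The labels name no separate cultures or plants for the replicates, so the p-values may reflect technical spread only. Every member passed the authors' test because of how the table was made, so that its presence there is no finding. Genes of the same pathways that are not in the table are called unlisted, and nothing is known of their values.

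A plant cell copies its DNA once per cycle. The origin recognition complex and loading factors place the MCM helicase on DNA, polymerases follow the opened fork, ribonucleotide reductase supplies nucleotides, and new histones of the classes H2A, H2B, H3 and H4 wrap both copies. Transcripts of many of these genes peak in S phase, in part through E2F factors, and are therefore abundant in meristems, where cells divide. BRCA1 and BARD1 act as a pair in the repair of broken DNA by homologous recombination. DME encodes a DNA glycosylase that removes methylated cytosine, and its own transcript was lower in dme, at a log2 fold change of -1.55 (the authors' adjusted p = 4.88e-17).

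Most of these genes were higher in dme, as were most listed genes. The share was 27 of the 33 measurements, or 81.8%, against 72.8% of all listed genes. The other 6 were lower (18.2%, against 27.2% of all listed genes). By role, the genes of origin licensing (5 of 5), the replication fork (4 of 4), nucleotide supply (1 of 1), recombination (2 of 2) and histones H2A (3 of 3), H3 (6 of 6) and H4 (2 of 2) were all higher. Histone H2B had 2 higher and 1 lower gene, other DNA repair also 2 and 1, and the linker histone gene and the 3 genes described as histone-modifying were lower. Each role is a small count of genes that were listed already, and none was tested. The recombination genes, BRCA1 and BARD1, were added by name with results known and are taken as having no reads in WT. Their count is thus fixed by that choice. In whole seedlings, a larger share of dividing cells and more RNA per dividing cell cannot be told apart.

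**Figure D1:**
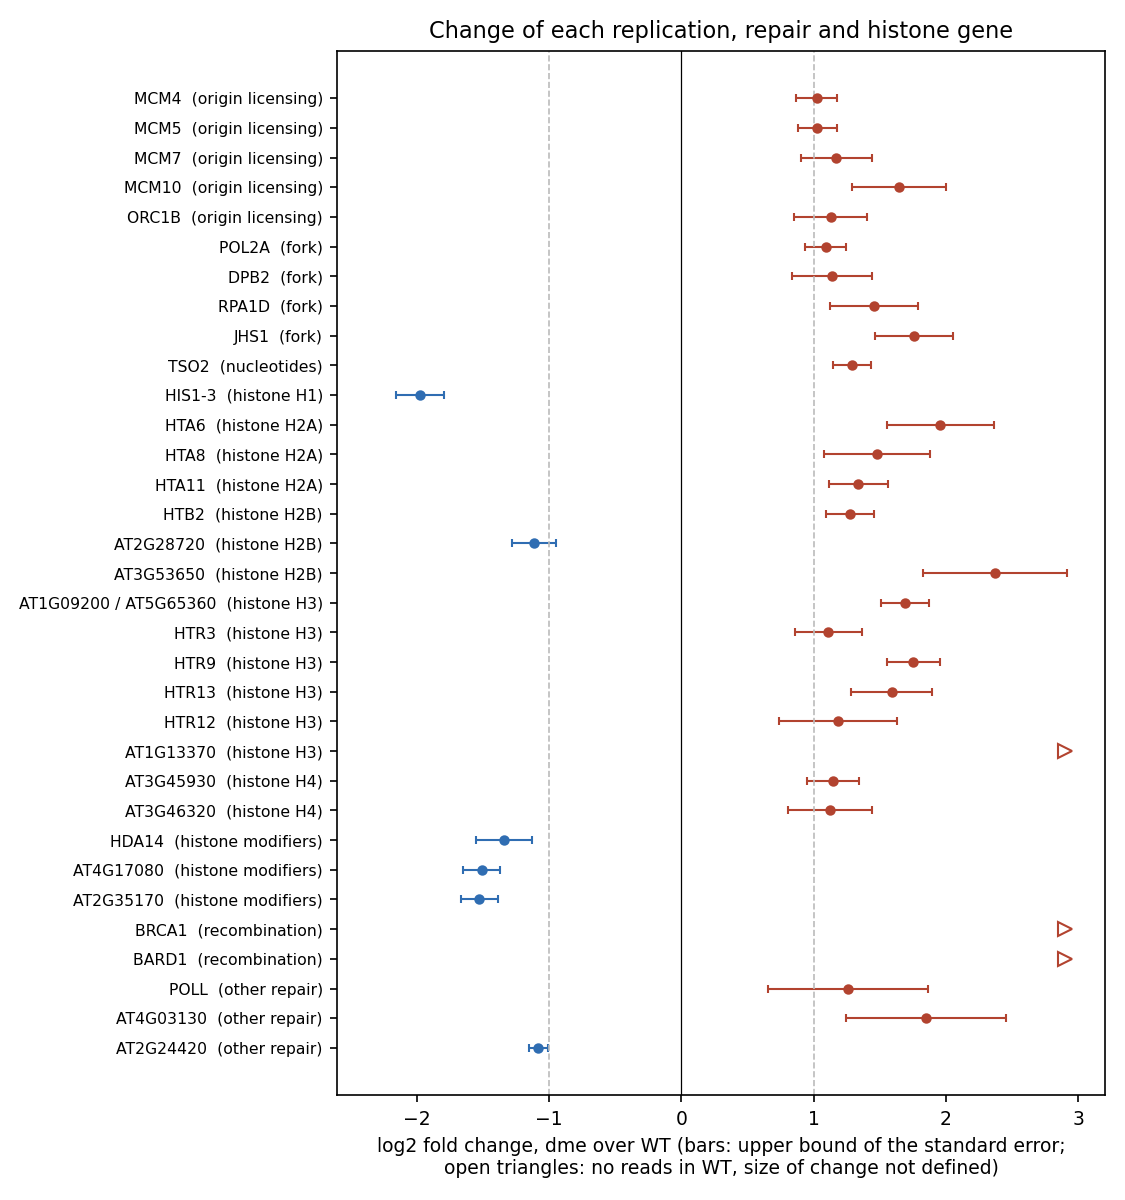
Log2 fold change, dme over WT, of the 33 measurements in the authors' table, with the role of each gene in brackets, red for higher and blue for lower genes. Bars show the upper bound of the standard error, dashed lines the 2-fold threshold of the table, and open triangles the 3 genes without reads in WT, whose size of change is not defined. Higher genes with reads in both genotypes lie between 1.02 and 2.37.

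The rises were mostly between 2-fold and 4-fold. The 24 higher members with reads in both genotypes had log2 fold changes from 1.02 to 2.37, with a median of 1.28 (2.43-fold). The corresponding median of all 3632 higher listed genes was 1.98 (3.95-fold). Of the 24, 23 lay below that median. A change of at least 4-fold was reached by 1 of the 24 (4.17%) and by 1800 of the 3632 (49.6%). These shares are a description of listed genes only, since changes below 2-fold are not in the table.

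**Figure D2:**
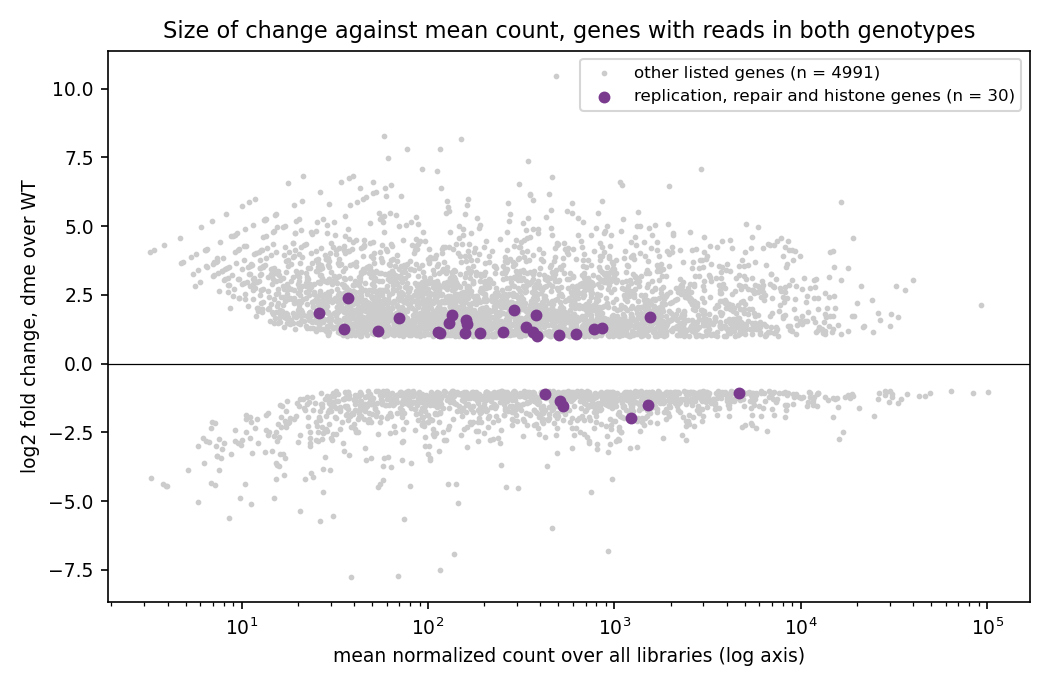
Log2 fold change, dme over WT, against the mean normalized count (log axis) for listed genes with reads in both genotypes, in grey for 4991 other genes and purple for 30 replication, repair and histone genes. The 24 higher members form a band near the lower edge of the grey cloud of higher genes, over means from 26.1 to 1559.

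Origin licensing was represented by MCM4, MCM5 and MCM7, subunits of the helicase that opens the DNA, and by ORC1B, the large subunit of the origin recognition complex. MCM4 had an implied mean of 252 normalized counts in WT and 512 in dme, and a log2 fold change of 1.02 (SE at most 0.16, the authors' adjusted p = 7.75e-11). MCM5 had implied means of 331 and 674, and MCM7 of 224 and 505. The log2 fold changes of these 2 were 1.03 and 1.17 in the authors' table (SE at most 0.15 and 0.27). MCM4 and MCM5 thus lie just inside the 2-fold threshold of the table, and MCM2, MCM3 and MCM6, the other subunits of the ring, were unlisted. ORC1B had implied means of 72.6 in WT and 159 in dme (log2 fold change 1.13, SE at most 0.28). MCM10, which acts in the activation of the loaded helicase, rose from an implied mean of 34.0 to 106 (log2 fold change 1.65, SE at most 0.36, the authors' adjusted p = 3.75e-06).

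At the fork, POL2A, the catalytic subunit of DNA polymerase epsilon, had implied means of 397 in WT and 847 in dme. Its partner subunit gene DPB2 had implied means of 71.0 and 156. Their log2 fold changes in the authors' table were close, at 1.09 (SE at most 0.16) and 1.14 (SE at most 0.30). RPA1D, a subunit of the protein that coats single-stranded DNA, rose from an implied mean of 86.4 to 237 (log2 fold change 1.45, SE at most 0.33, the authors' adjusted p = 1.04e-05). JHS1, described as a DNA replication helicase, had the largest fold of the 4 fork genes, from 61.1 to 206 (log2 fold change 1.75, SE at most 0.29, the authors' adjusted p = 2.66e-09). TSO2, a small subunit of ribonucleotide reductase, rose from an implied mean of 501 to 1223 (log2 fold change 1.29, SE at most 0.14, the authors' adjusted p = 2.49e-19). POL2A overlaps the unlisted AT1G08250 over 1756 annotated bases and AT1G08270 over 624, both on the opposite strand, and the latter is itself listed as higher (log2 fold change 1.21 in the authors' table, mean 34.0). Of all 34 loci, 7 overlap another annotated gene, 5 of them on the opposite strand. For these 5, no source used here states whether strand was used in counting, so reads of the shared bases may belong to either gene. Strand would not separate the same-strand overlaps, which are of HTR3 with the unlisted AT3G27380 over 328 bases, of MCM7 with a tRNA gene over 72 and of TSO2 with a neighbour over 3.

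Promoters of 4 of these genes hold a word of the kind bound by E2F factors. The words searched were TTTCCCGC, TTTGGCGC, TTTGGCGG and TTTCCCGG on both strands, in the window from 250 bases before to 50 bases after the annotated gene start. The licensing, fork and nucleotide genes without such a word were listed as higher too. Stretches around the words are given for the 4 genes that hold one. They are read 5′ to 3′ on the strand of the gene from the RefSeq genome of build TAIR10.1, which is of the Columbia accession, with the words or their reverse complements in capitals. Positions count from the gene start, whose first base is 1. The stretch of MCM4 (chromosome 2, minus strand) covers positions -50 to -13, that of MCM5 (chromosome 2, minus strand) -34 to 22, that of DPB2 (chromosome 5, minus strand) -21 to 17 and that of RPA1D (chromosome 5, minus strand) -41 to -4.
MCM4: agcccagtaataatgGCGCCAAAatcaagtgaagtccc
MCM5: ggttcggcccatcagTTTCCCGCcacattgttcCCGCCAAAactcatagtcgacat
DPB2: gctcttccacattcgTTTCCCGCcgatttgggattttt
RPA1D: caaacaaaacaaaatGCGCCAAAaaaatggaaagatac

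MCM5 holds a pair of words, and in all 4 genes the words lie within 50 bases of the gene start. The promoters of MCM7, MCM10, ORC1B, POL2A, JHS1 and TSO2 hold none of the 4 words in this window. A match is a run of letters and not a measured site.

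Among histones, all 6 listed H3 measurements were higher. H3.1 is the H3 form that is laid down at replication, and H3.3 the form that is laid down outside it. RefSeq names 5 loci as H3.1, and all 5 are listed as higher, against 13.7% of all annotated nuclear protein-coding genes. Among the 5, AT1G09200 and AT5G65360 share a single value, so that fewer measurements than loci stand behind this count. The 3 loci named H3.3 are unlisted, and nothing is known of their values. HTR9 rose from an implied mean of 174 to 588 normalized counts, with 1.75 on the log2 scale (SE at most 0.20, the authors' adjusted p = 1.44e-18). HTR13 rose from 79.5 to 239 (log2 fold change 1.59, SE at most 0.31) and HTR3, which overlaps a gene on its own strand, from 121 to 261 (log2 fold change 1.11, SE at most 0.25). AT1G09200 and AT5G65360 share the name H3.1 and all values in the table, with implied means of 737 in WT and 2382 in dme and a log2 fold change of 1.69 (SE at most 0.18). Their coding sequences are 84.7% identical, with no identical run longer than 20 bases. Because both rows carry the same name and values, the value is counted once here, and which of the loci it belongs to is not known. HTR9 and HTR13 are neighbours on chromosome 5 with no protein-coding gene between them.

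HTR12 encodes CENH3, the H3 variant that marks centromeres. It rose from an implied mean of 33.2 to 75.2, with 1.18 on the log2 scale (SE at most 0.45, the authors' adjusted p = 0.00810). AT1G13370, an H3 gene whose closest match in the table's annotation is an H3.3 gene, had a mean of only 2.59 normalized counts and no reads in WT by the pattern of its fold (the authors' adjusted p = 0.0387). It rests on few reads.

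The higher H2A genes all encode variants. HTA8 and HTA11 are H2A.Z genes, whose protein sits at gene starts, and HTA6 is an H2A.W gene, whose protein sits in heterochromatin. HTA6 rose from an implied mean of 119 to 460 (log2 fold change 1.96, SE at most 0.40, the authors' adjusted p = 1.32e-06), HTA8 from 68.2 to 190.3 (log2 fold change 1.48, SE at most 0.40) and HTA11 from 189.6 to 479 (log2 fold change 1.34, SE at most 0.22). The other 9 of 12 H2A genes were unlisted.

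Histone H2B was the only core class listed in both directions. HTB2 rose from an implied mean of 452 to 1095 (log2 fold change 1.28, SE at most 0.18, the authors' adjusted p = 3.77e-12). AT3G53650 rose from 12.0 to 62.1 and, at 5.17-fold, had the largest change of the members with reads in both genotypes (log2 fold change 2.37, SE at most 0.54). AT2G28720 was lower instead, at implied means of 583 in WT and 269 in dme (log2 fold change -1.12, SE at most 0.17, the authors' adjusted p = 3.13e-11).

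The H4 genes AT3G45930 and AT3G46320 changed alike, from implied means of 157 to 346 and of 99.7 to 217. Their log2 fold changes were 1.14 and 1.12 in the authors' table (SE at most 0.20 and 0.32). These copies share 97.4% of their coding bases and an identical run of 147 bases, so reads may be shared between them, and the 2 values may not be separate measurements. The linker histone gene HIS1-3, annotated as induced by dehydration and abscisic acid, had the largest fall of all members. It stood at implied means of 1968 in WT and 500.2 in dme, 3.94-fold lower (log2 fold change -1.98, SE at most 0.18, the authors' adjusted p = 1.46e-27). The other 2 linker histone genes were unlisted.

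**Figure D3:**
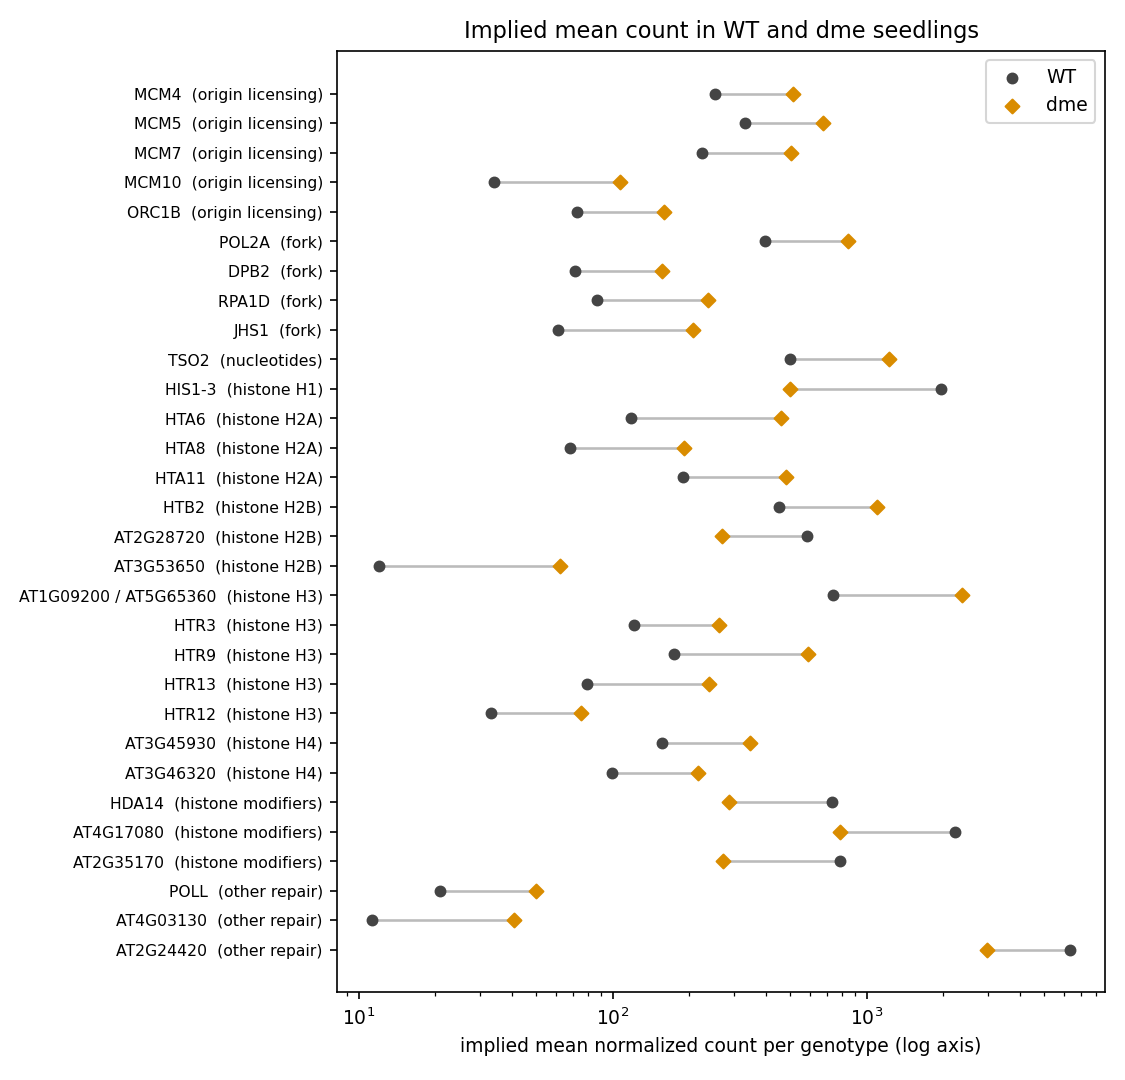
Implied mean normalized count in WT (grey circles) and dme (orange diamonds) on a log axis for the 30 measurements with reads in both genotypes, joined by a line per gene. Orange lies to the right of grey in 24 and to the left in 6. Levels of different genes are not set per length and are not to be compared.

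A second word was searched for in histone promoters, the octamer CGCGGATC, known from plant histone genes. It was found in those of HTA6, AT1G09200, AT5G65360 and HTR9, while HTA11, HTR13 and the pair of H4 genes hold an E2F-type word. The following stretches, given because they set these histone genes apart from most promoters, have either kind of word in capitals. They are read as described above and come from the minus strand, except those of HTA11 (chromosome 3) and AT3G45930 (chromosome 3), which come from the plus strand. HTA6 (chromosome 5) is shown from position -131 to -94, AT1G09200 (chromosome 1) from -105 to 4, AT5G65360 (chromosome 5) from -141 to -104 and HTR9 (chromosome 5) from -135 to -98. HTA11 is shown from 19 to 50, HTR13 (chromosome 5) from -22 to 16, and both AT3G45930 and AT3G46320 (chromosome 3) from -250 to -215.
HTA6: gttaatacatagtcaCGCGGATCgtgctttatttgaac
AT1G09200: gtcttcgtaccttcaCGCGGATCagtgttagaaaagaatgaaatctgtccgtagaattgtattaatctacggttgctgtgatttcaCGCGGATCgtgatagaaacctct
AT5G65360: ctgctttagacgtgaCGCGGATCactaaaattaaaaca
HTR9: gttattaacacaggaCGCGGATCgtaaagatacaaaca
HTA11: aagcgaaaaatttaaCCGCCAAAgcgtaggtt
HTR13: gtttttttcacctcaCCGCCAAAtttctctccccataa
AT3G45930: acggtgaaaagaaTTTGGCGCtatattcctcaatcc
AT3G46320: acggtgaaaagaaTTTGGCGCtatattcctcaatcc

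AT1G09200 holds the octamer at 2 places. The stretches of the H4 genes are the same letter for letter, as their coding sequences nearly are. The histone list of 48 genes holds 32 unlisted ones, and 6 of these 32 (18.8%) also hold the octamer, against 4 of the 14 higher histone loci (28.6%) and 0.146% of all 27431 annotated nuclear protein-coding genes with a full window. The 14 loci include both AT1G09200 and AT5G65360, which hold the octamer and whose shared value may not belong to both. Listed and unlisted histone genes both hold the octamer. An E2F-type word was found in 4 of the 14 higher histone loci and in 0 of the 32 unlisted histone genes. With the 250 bases before the start alone, it was found in 2 of the 14 and in 0 of the 32. These 2 are the H4 genes with the same stretch, so the contrast rests on few separate promoters. The core AACGG of the mitosis-specific activator element, a short word, was found in 11 of the 14 (78.6%), in 17 of the 32 (53.1%) and in 24.7% of all genes. The histone hexamer ACGTCA was found in 4 of the 14 (28.6%), in 9 of the 32 (28.1%) and in 9.19% of all genes.

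Over all 28 higher loci, 9 promoters (32.1%) hold an E2F-type word, against 93 of 3765 higher listed genes (2.47%), 674 of 27431 annotated genes (2.46%) and 0 of the 6 lower members. The word is frequent in unlisted genes of the pathway too: of 105 unlisted genes of the replication and repair lists, 20 (19.0%) hold it, against 13 of 32 higher ones (40.6%). Of the 9 promoters, 5 have it within the 250 bases before the start (17.9%, against 1.90% of all genes). Among these 5 are 2 histone loci, the H4 genes with the same stretch. The palindrome bound by SOG1, the main regulator of the plant DNA damage response, is CTT and AAG with 7 bases between them. It was found in 1 of the 28 higher loci (3.57%), MCM5, in 3 of the 6 lower ones and in 11.8% of all genes.

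**Figure D4:**
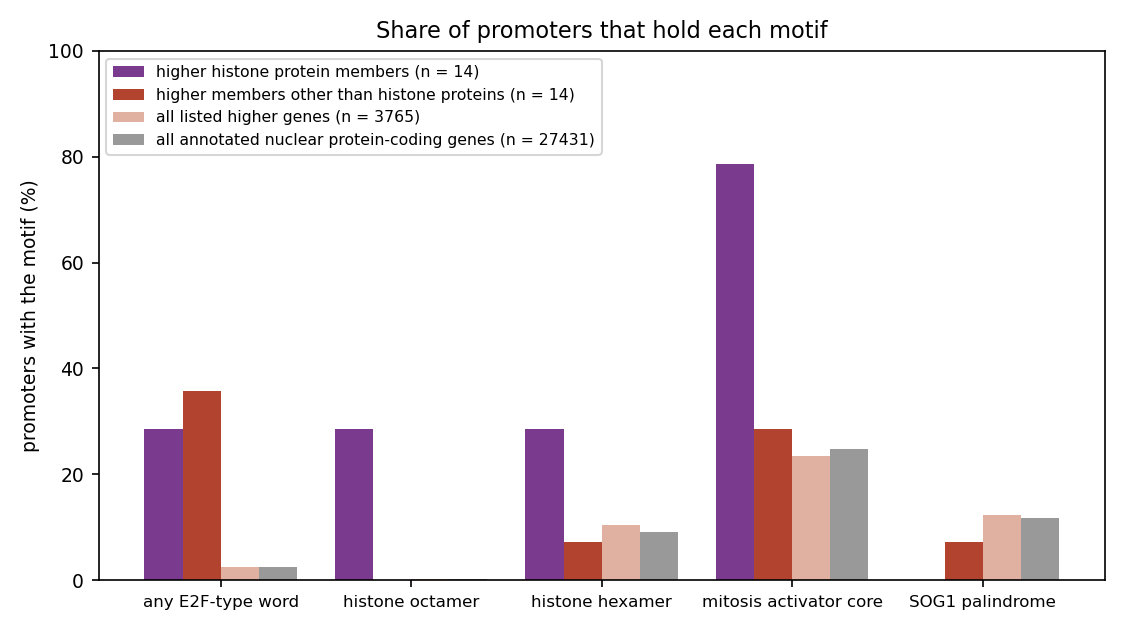
Percent of promoters that hold each motif, for 14 higher histone loci, 14 other higher loci, 3765 higher listed genes and all 27431 annotated nuclear protein-coding genes with a full window. E2F-type words stand at 28.6% and 35.7% in the member sets and at 2.47% and 2.46% in the others, and the octamer at 28.6% in the histone loci alone.

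BRCA1 and BARD1 differ from most other members in a pattern that they share with AT1G13370. In these genes, the fold follows from the mean alone, as happens when a genotype has no reads, so that WT is taken as 0 and no fold is given. The implied mean in dme was 125 normalized counts for BRCA1 (the authors' adjusted p = 1.57e-13) and 56.1 for BARD1 (the authors' adjusted p = 4.13e-09). BRCA1 carries a RING finger and BRCT domains, and is induced by gamma rays in Arabidopsis, according to the table's annotation. BARD1 also acts in the shoot meristem, where it represses WUS, according to the same annotation. Of the higher listed genes, 235 of 3867 share this pattern, among them 3 of the 27 higher members. Neither gene overlaps another annotated gene. BRCA1 holds an E2F-type word after its start (chromosome 4, plus strand, positions 18 to 50), and BARD1 none of the 4 words.
BRCA1: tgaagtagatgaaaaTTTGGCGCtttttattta

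The other 2 higher repair genes had reads in both genotypes. POLL, a DNA polymerase for the repair of UV-B damage, rose from an implied mean of 20.9 to 50.03 (log2 fold change 1.26, SE at most 0.60, the authors' adjusted p = 0.0370). AT4G03130, a protein with a BRCT domain, rose from 11.3 to 40.8 (log2 fold change 1.85, SE at most 0.60, the authors' adjusted p = 0.00223).

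Of the remaining 4 lower members, AT2G24420, AT4G17080 and AT2G35170 carry the words of the rule in their names more than in their annotation. AT2G24420 is described as related to a DNA repair ATPase, but is annotated at the endoplasmic reticulum and plasma membrane and is most like a myosin heavy chain protein. It stood at implied means of 6304 in WT and 2976 in dme (log2 fold change -1.08, SE at most 0.07, the authors' adjusted p = 2.59e-50). AT4G17080 and AT2G35170 are described as SET7/9 histone methyltransferases, but the only domain annotated in the table is the MORN repeat, and each is the other's closest relative. AT4G17080 stood at 2229 in WT and 784 in dme, and AT2G35170 at 784 and 272, with log2 fold changes of -1.51 and -1.53 (SE at most 0.14 for both). HDA14, a histone deacetylase annotated at the chloroplast, stood at 728 and 287 (log2 fold change -1.34, SE at most 0.21, the authors' adjusted p = 2.35e-10). Without these 4, 27 of 29 measurements (93.1%) were higher, against 72.8% of all listed genes. All 4 are lower genes and were set apart with the results known, so this share rises by construction.

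Lists of the pathways hold genes that the words of the rule miss. Of 186 genes on the replication, repair and histone lists, 46 were listed as higher (24.7%) and 3 as lower (1.61%), against 13.7% and 4.86% of all 27432 annotated nuclear protein-coding genes. The lists were drawn up with earlier results of these data known, and the annotated genes include ones that may not have been tested, so no test was made. Licensing had 6 of 17 genes higher, with ORC3 at 1.198 and ORC6 at 1.98 (log2 fold changes). The list of helicase activation had 3 of 10 higher, led by CDC45, part of the active helicase, at 2.04. On the list of polymerases, clamp, loader and ligase, 9 of 29 were higher. They include PCNA1 and PCNA2, the sliding clamp that holds the polymerase on DNA, at 1.50 and 1.72 (log2 fold changes of the authors' table). RPA2A and RPA3A, for other subunits of the protein that coats single-stranded DNA, stood at 2.99 and 1.87 on the same scale. RPA2A rose from an implied WT mean of only 6.51 (SE at most 1.11). RPA1B, also among the higher genes, had no reads in WT by the pattern of its fold, at a mean of 7.93 normalized counts. DUT1, which removes dUTP, joined TSO2 at 1.28, while the other 4 of 6 genes of nucleotide supply were unlisted. ASF1B, a histone chaperone, stood at 1.17, and the other 4 of 5 chaperones of replication were unlisted, as were all 3 E2F factors.

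On the repair lists, beside BRCA1 and BARD1, RAD54, a motor protein of recombination, stood at 1.19 and BRCA2A at 1.01 (the authors' adjusted p = 0.0406), and 15 of 19 genes of homologous recombination were unlisted. End joining had 1 of 12 genes listed (POLL), and the list of excision repair and photolyases 1 of 19, the lower photolyase gene UVR3 at -1.04. DNA damage signalling had 5 of 11 listed, all higher. The checkpoint kinase genes ATR and WEE1 stood at 1.63 and 1.41, RAD17 at 1.53, and the cell cycle inhibitor gene SMR5 at 2.09, while the regulator SOG1 and the kinase ATM were unlisted. The fifth was the mitotic cyclin gene CYCB1;1 at 1.35, which is also a marker of dividing cells (log2 fold changes of the authors' table throughout).

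**Figure D5:**
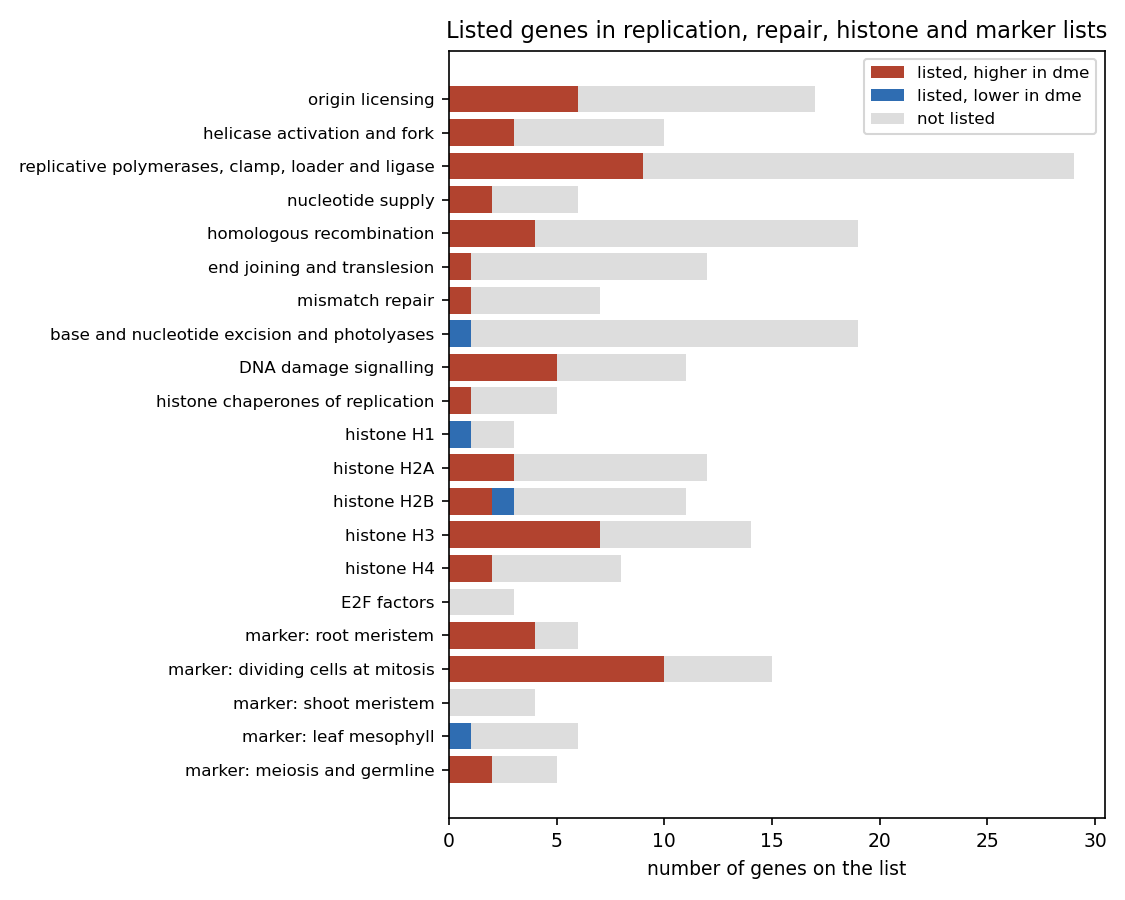
Number of genes on each list that the authors' table lists as higher in dme (red), as lower (blue) or not at all (grey), for replication, repair and histone lists and for markers of other cells. Red fills 10 of 15 genes of dividing cells at mitosis and 4 of 6 of the root meristem, and the shoot meristem list holds none. Of all annotated nuclear protein-coding genes, 13.7% were listed as higher and 4.86% as lower.

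Many markers of dividing cells and of the root meristem were also listed as higher. Of all annotated nuclear protein-coding genes, 13.7% were listed as higher and 4.86% as lower, and no marker list was tested against these shares. Of 15 mitotic genes, 10 were higher and 0 lower, from CDKB2;1 at 1.07 to CDKB1;1 at 3.57 (log2 fold changes), the latter from an implied WT mean of only 1.71. Of 6 root meristem genes, 4 were higher: PLT1 at 2.57, PLT2 at 2.04, BBM at 1.54 and WOX5 at 2.08. WOX5 rose from an implied WT mean of only 4.13 (SE at most 0.86). None of 4 shoot meristem genes was listed. Of 6 leaf mesophyll genes, LHCB2.1 was lower, at -1.20 from a mean normalized count of 17251, and 5 were unlisted. Of 5 meiosis genes, ASY1 and MSH4 were higher, at 2.05 and 2.95, MSH4 from an implied WT mean of only 2.74 (SE at most 1.03). The part of these cell types in the rises of the replication, repair and histone genes was not tested.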

How the data were processed

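RNA of 3 WT and 3 dme seedling samples, grouped by their titles, was sequenced. Per the submitters' processing notes, Trimmomatic 0.36, HISAT2 2.1.0, StringTie 2.1.3 and the build TAIR10 were used. The counting, the strand setting and the differential test have no stated tool or setting in the labels or header. The mean normalized count (a signal with an unstated scaling), log2 fold change, linear fold and adjusted p-value were deposited by the authors, per the file headers. Fits that need values per library were planned in case the table held them, and were not run; no column of such values (0) is used.

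Rows with equal name and values were counted once (11 left out). Implied means assume that folds are ratios of 2 means of 3 libraries each. The bound on the SE divides the size of the log2 fold change by the normal quantile that its adjusted p implies, on the assumption of a Wald test. In 290 genes the log2 mean minus the absolute log2 fold change lies below -3.0, at -3.40 in the 235 higher ones with the next higher gene at -2.43, and these are taken as having no reads in 1 genotype. Locus codes of all 34 members matched the RefSeq annotation of TAIR10.1, whose coordinates are not printed because its build name differs from the authors'. Promoters come from its protein-coding genes on chromosomes 1 to 5. In random sequence, 14 of 14 planted words were found. Members, lists, motifs and roles were chosen with earlier results of these data known. The rule for named genes takes every member of a role with 6 or fewer, which is all members; AT1G08270, AT1G08250 and AT3G27380, which overlap members, were named after the values were seen. Alternatives tried are in the closing section. The tools were pandas 2.3.3, scipy 1.17.1 and numpy 2.4.6 under Python 3.11.15, and figures came from matplotlib 3.10.9.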

Additional observations from a re-analysis of the deposited data

How the results depend on the processing

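No paired analysis was possible because the table holds no values per library, and for the same reason no library was left out. Counts, share and median of the members stayed close under an adjusted p under 0.01 (25 higher and 6 lower). They also stayed close with a mean of at least 50 (22 and 6) or every row counted (28 and 6). The same held without genes with reads in only 1 genotype (24 and 6) and without the 4 genes added by name (23 and 6). Of these 4, TSO2 and HTR12 also match the rule by description. At least 4-fold leaves 4 higher and 0 lower members, 100% higher, with a median log2 fold change of 2.37 that rests on AT3G53650, since the other 3 have no reads in WT; fewer genes are left by construction. Replication and repair machinery with histone proteins alone leaves 2 lower members and a share of 93.1% higher. That share rises by construction, since only lower members are left out. A shift of all log2 fold changes by -0.5 leaves 11 higher members past 2-fold, and a shift of 0.5 leaves 3 lower ones; both are arithmetic, not a measured scaling. With the 250 bases before the start alone, E2F-type words are in 17.9% of higher loci in place of 32.1%. Library depth is unknown; POLL, BARD1, AT4G03130 and AT1G13370 have the lowest means of the members, from 2.59 to 35.5 normalized counts.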
